A study of Caenorhabditis elegans with 4 samples.

Results

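Peaks of the Hox protein LIN-39 on chromosome III of Caenorhabditis elegans were examined outside an excluded stretch, called the Hox neighbourhood here. The regions are the peaks on III whose centre lies below position 7400001 or above position 7950000, in the coordinates of the WormBase WS220 build that the file headers name. They number 27 of the 141 peaks in the list for the whole series, called series-level sites here, 3551 of the 30000 peaks of ChIP replicate 1 and 3579 of the 30000 peaks of ChIP replicate 2. They are called members here. Position alone chose them, and no score or peak number did.

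The peaks came from chromatin immunoprecipitation with sequencing (ChIP-seq) on hermaphrodites of strain OP18, raised at 20 °C to L4, the last larval stage. There were 2 ChIP libraries, drawn with an antibody to green fluorescent protein, and 2 input libraries made from sonicated chromatin that saw no antibody. All 4 libraries came from animals with unc-119(ed3) III and the bombarded transgene wgIs18, in which a working unc-119(+) accompanies lin-39::TY1::EGFP::3xFLAG, so the immunoprecipitated protein was the tagged fusion. Per the labels the fusion follows the lin-39 expression pattern, and they do not state the transgene's copy number. Nothing in the labels says that the replicates were separate cultures. Whole animals were used, so cells that make LIN-39 and cells that do not were mixed, and few strongly bound cells cannot be told apart from many weakly bound ones.

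Hox proteins are homeodomain transcription factors that give cells their identity along the body axis. LIN-39 acts in the middle of the worm, in vulval precursor cells, migrating neuroblasts and motor neurons of the ventral cord, and it binds DNA together with the Pbx-type cofactor CEH-20 (gene ceh-20). In C. elegans the Hox genes lin-39, ceh-13, mab-5, egl-5, nob-1 and php-3 all lie on chromosome III, as does ceh-20, while unc-62, the Meis-type partner, lies on V. The worm's chromosomes have no single centromere. The middle of each autosome holds more of the conserved, broadly used genes, and the outer parts recombine more and hold more repeats. The gene table at hand is for build WBcel235 and not WS220, so no gene was assigned to any peak and no sequence was read from a position. Which of these Hox genes lie within the excluded stretch was not checked, and some may lie in the stretches analysed.

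A peak's number is its place in its own list. Number 1 is read as the top, although no header or label says that it is the caller's rank. Score means the value that the authors deposited for each peak. By its values, the score can be read as minus log10 of an estimated false discovery share, which sets peaks against calls from a background. A score above 0 means more peaks than background calls down to that place, and one below 0 means fewer. Neither number nor score is an amount of binding. No read counts are in the lists, so the depth behind every value is unknown. Intervals are 95% exact Clopper-Pearson intervals over peaks, and they cover counting error only. Neighbouring peaks can overlap, so they are not independent. No test set chromosome III against the rest of the series, and differences are given as values.

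Series-level sites made up a larger share of their list on III than the replicate peaks did of theirs. The 27 sites were 19.1% of the 141 (interval 13.0 to 26.6), while the member peaks were 11.8% of replicate 1 (11.5 to 12.2) and 11.9% of replicate 2 (11.6 to 12.3). The stretches analysed cover 13.2 Mb, which is 13.2% of the summed chromosome spans. That gave 2.04 series-level sites per Mb on III, against 1.31 per Mb in the rest of the series. Replicate peaks ran the other way, at 268 and 270 per Mb in replicates 1 and 2, against 304 per Mb for the rest of either list. Near the top of the lists the share on III was 14% of numbers 1 to 50 in each replicate (7 peaks, 5.82 to 26.7), 12% of numbers 1 to 500 in each (60 peaks), and 11.4% and 12.2% of numbers 1 to 1000 in replicates 1 and 2.

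On the reading of the score given above, few of these peaks stood clear of background, at shares near those of the whole lists. An estimate below 0.5, that is, fewer than 1 background call for every 2 peaks, was reached by 10 of the 27 series-level sites (39% of all 141 reached it), by 7 of the 3551 replicate 1 peaks (0.17% of all 30000) and by 19 of the 3579 replicate 2 peaks (0.52% of all 30000). The last of these held place 56 of the series-level list, place 45 of replicate 1 and place 149 of replicate 2. Scores above 0 were held by 16 of the 27 sites, against 65.2% of all series-level peaks. In replicate 1 the member scores ran between -0.0677 and 0.786, and in replicate 2 between -0.0655 and 1.84. Most members were below 0, with 72.3% in replicate 1 and 94.3% in replicate 2. The same shares were not taken over the whole lists, so they mark nothing particular to III. The score rises again far down both replicate lists. Numbers beyond 1000 were held by 967 of the 979 members above 0 in replicate 1 and by 151 of the 205 in replicate 2. These counts were not taken over the whole lists either. On the same reading of the score, 1164 background calls had been reached at number 1000 in replicate 1 and 1109 in replicate 2. Shares over numbers 1 to 1000 would then mix LIN-39 sites with background.

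Cut into 3 equal parts, III has a left, a middle and a right part. The leading site lay in the left part, at III 3867277 to 3867780. It held place 11 of the series-level list, where it shared the highest score (1.61), place 16 of replicate 1 (score 0.646) and place 10 of replicate 2 (score 1.84). It was the lowest-numbered member in all 3 lists. The next, III 1859466 to 1859969, was also in the left part and held place 22 of the series-level list, place 44 of replicate 1 and place 21 of replicate 2. With III 8043659 to 8044162, place 30 of the series-level list, place 53 of replicate 1 and place 91 of replicate 2, these were the only 3 of the 27 within the 100 lowest numbers of both replicates, where 24.8% of all 141 series-level peaks were. That last site is the series-level site nearest to the excluded Hox neighbourhood, 93.9 kb beyond its right border.

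Other sites near the top of the series-level list stood high in 1 replicate and much lower in the other. The site at III 8417096 to 8417599, place 24 of the series-level list, held place 20 of replicate 1 and place 231 of replicate 2. III 5018028 to 5018531 held place 46 of the series-level list, place 21 of replicate 1 and place 339 of replicate 2. III 10758894 to 10759397 held place 64 of the series-level list, place 28 of replicate 1, where it had the highest member score of that list (0.786), and place 358 of replicate 2. These 3 stood at least 10 times closer to the top in replicate 1.

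The reverse was seen near the right end of the chromosome. III 13464593 to 13465096, place 36 of the series-level list, held place 410 of replicate 1 and place 27 of replicate 2. It shared the highest score of replicate 2 (1.84), which 35 peaks of that list had, 3 of them members. In replicate 1 its score was below 0 (-0.0443). III 13070413 to 13070916, place 39 of the series-level list, held place 927 of replicate 1 and place 39 of replicate 2. Only 9536 bp away, III 13060877 to 13061380 held place 86 of the series-level list, place 466 of replicate 1 and place 75 of replicate 2.

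Between these extremes were sites whose numbers lay closer together. III 9765283 to 9765786 held place 47 of the series-level list, place 37 of replicate 1 and place 189 of replicate 2. III 11738379 to 11738882 held place 48 of the series-level list, place 203 of replicate 1 and place 63 of replicate 2. III 5937805 to 5938308 held place 53 of the series-level list, place 158 of replicate 1 and place 213 of replicate 2. These differed by up to 5.11-fold between the replicates. III 8232723 to 8233226, place 56 of the series-level list, held place 140 of replicate 1 and place 214 of replicate 2. The most even of all 27 was III 3456165 to 3456668, place 107 of the series-level list, with place 264 of replicate 1 and place 256 of replicate 2.

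**Figure D1:**
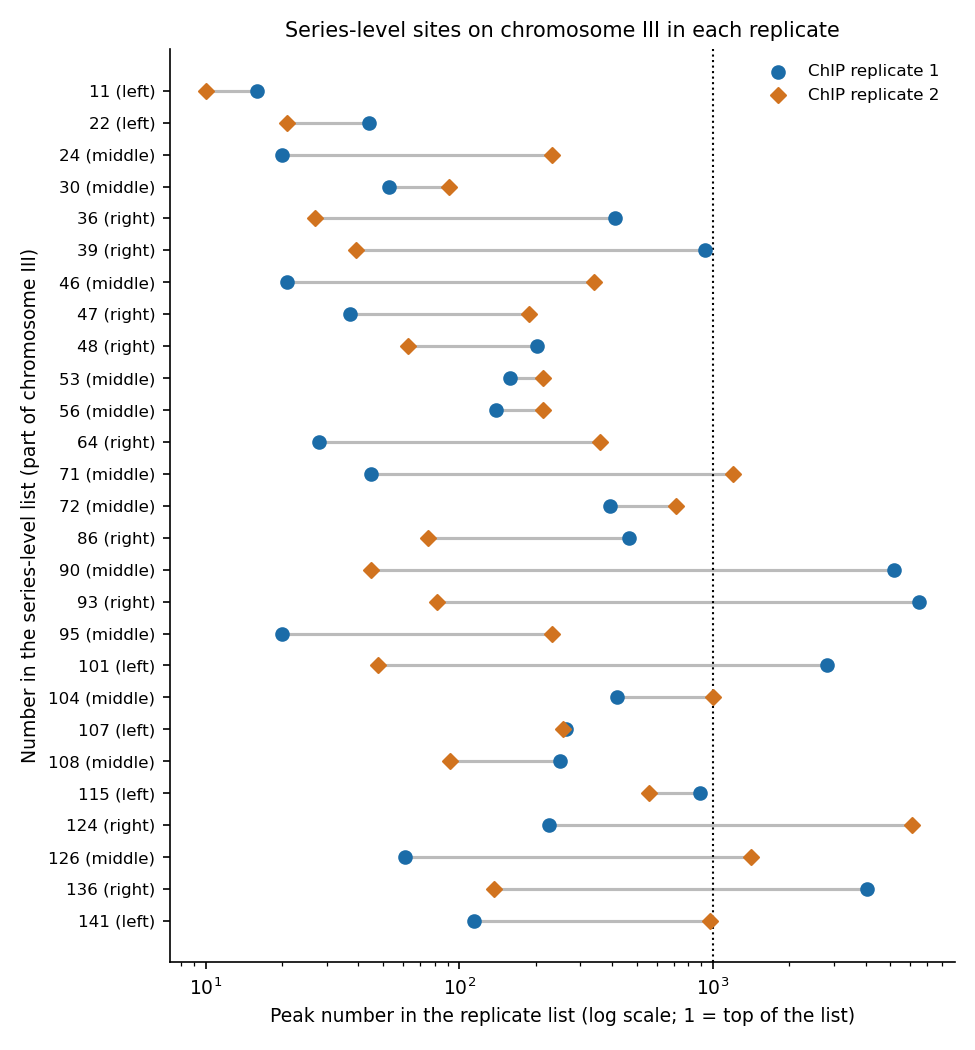
Peak number in ChIP replicate 1 (circles) and ChIP replicate 2 (diamonds) of the 27 series-level sites on chromosome III outside the Hox neighbourhood, on a log axis, with the top of the list at the left. Rows follow the number in the series-level list, given with the part of the chromosome, and the dotted line marks number 1000. The numbers lie close together for site 107 and 114.7-fold apart for site 90.

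The remaining sites of the series-level list included the most uneven ones. III 6971805 to 6972308 held place 90 of the series-level list, place 5161 of replicate 1 and place 45 of replicate 2. III 13275634 to 13276137 held place 93 of the series-level list, place 6495 of replicate 1 and place 82 of replicate 2. III 3677162 to 3677665 held place 101 of the series-level list, place 2819 of replicate 1 and place 48 of replicate 2. Each of these had a score below 0 in replicate 1 and of 0.456 or more in replicate 2.

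Uneven in the other direction were 3 sites. III 8797327 to 8797830 held place 71 of the series-level list, place 45 of replicate 1 and place 1203 of replicate 2. III 6987931 to 6988434 held place 126 of the series-level list, place 61 of replicate 1 and place 1408 of replicate 2. III 9860252 to 9860755 held place 124 of the series-level list, place 226 of replicate 1 and place 6117 of replicate 2, with a score below 0 in all 3 lists. The next site to its right did the opposite: III 9985414 to 9985917, 125 kb away and at place 136 of the series-level list, held place 4060 of replicate 1 and place 137 of replicate 2.

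The other sites lay in the lower part of the series-level list. III 5503083 to 5503586 held place 72 of the series-level list, place 392 of replicate 1 and place 717 of replicate 2. III 8874237 to 8874740 held place 104 of the series-level list, place 420 of replicate 1 and place 996 of replicate 2. III 8446842 to 8447345 held place 108 of the series-level list, place 249 of replicate 1 and place 92 of replicate 2. All 3 were within the 1000 lowest numbers of both replicates. In the left part, III 4223598 to 4224101 held place 115 of the series-level list, place 889 of replicate 1 and place 559 of replicate 2. III 4066938 to 4067441, the last peak of the list at number 141, held place 114 of replicate 1 and place 970 of replicate 2. The site at III 8417295 to 8417798, place 95 of the series-level list, shares 305 bp with number 24, and the same replicate peaks, place 20 of replicate 1 and place 231 of replicate 2, are its lowest-numbered ones. They are therefore not separate observations.

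Set together, the 27 sites had a median number of 203 in replicate 1 and 213 in replicate 2, against 195.5 and 72.5 for the other 114 series-level peaks. The counts given here take the overlapping pair as 2 sites. Within the 1000 lowest numbers of both replicates were 20 of the 27 (74.1%), where 72.3% of all 141 series-level peaks were. Ranked by deposited score, 8 of the 27 were, and 35.5% of all 141. Numbers more than 10-fold apart were found for 13 of the 27 sites (48.1%), against 32.6% of all 141. Replicate 2 gave the lower number for 13 of the 27 (48.1%, 28.7 to 68.1), against 58.9% of all 141. The centre of the nearest replicate peak lay within 100 bp of the site in both replicates for 24 of the 27, where 83% of all 141 met this. The median distance was 9 bp in replicate 1 and 13 bp in replicate 2, against 21 bp and 13 bp over all 141.

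By the lowest overlapping number, which replicate stood higher differed with position along III. In the middle part, replicate 1 gave the lower number for 10 of 12 sites and replicate 2 for 2. The 10 include both sites of the overlapping pair, which take the same replicate peaks and are not separate observations. In the left part replicate 2 gave the lower number for 5 of 6 sites, and in the right part for 6 of 9. All 5 sites beyond position 11000000 had the lower number in replicate 2, with numbers 27 to 82 there and 203 to 6495 in replicate 1. With the number of the nearest replicate peak in place of the lowest one, replicate 2 was lower at 4 of these 5. On that count it was lower at 5 of the 9 sites in the right part. Ranked by deposited score, the middle part split evenly, with 6 sites for each replicate, while replicate 2 led at 12 of the 15 outer sites. This split was noticed in the values and was not tested. On the other autosomes replicate 2 gave the lower number for 23 of 40 sites in the middle parts and for 21 of 34 in the outer parts. In the right part alone it did so for 8 of 10 sites on the other autosomes, so a lean to replicate 2 there was not seen on III alone.

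**Figure D2:**
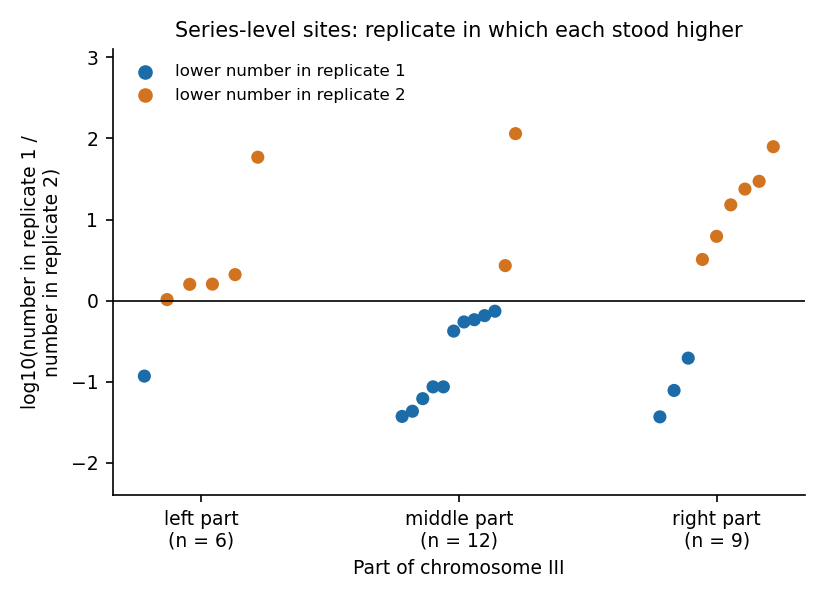
For each of the 27 series-level sites, the log10 ratio of its number in replicate 1 to its number in replicate 2, by part of chromosome III. Points above 0 stood higher in replicate 2 and points below 0 in replicate 1, and points within a part are spread sideways in order of value only. In the middle part 10 of 12 points lie below 0, and in the outer parts 11 of 15 lie above it. Ranked by deposited score instead, the middle part split evenly, with 6 sites for each replicate. The 10 include both sites of the overlapping pair, which take the same replicate peaks.

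Position along the chromosome was described by these parts of 4.59 Mb each. The excluded Hox neighbourhood takes 0.55 Mb out of the middle part, which leaves 4.04 Mb there, 30.6% of the length analysed. The middle part held 1248 of the 3551 replicate 1 peaks (35.1%, 33.6 to 36.7), where 37.6% of all replicate 1 peaks lay in the middle part of their chromosome. It held 1227 of the 3579 replicate 2 peaks (34.3%, 32.7 to 35.9), against 37.7% of all replicate 2 peaks. The shares over all peaks have no stretch left out, so they are not on equal terms with those on III. Per Mb of length left, that was 309 peaks in the middle, 258 in the left and 243 in the right part in replicate 1, and 303, 264 and 248 in replicate 2. The middle was the densest part in both lists, by at most 1.27-fold over an outer part.

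Among numbers 1 to 1000 the middle part held a larger share than in the full lists. There it held 35.1% and 34.3% in replicates 1 and 2, and the replicate 2 interval for numbers 1 to 1000 holds that 34.3%. Of numbers 1 to 1000 it held 56 of 114 members in replicate 1 (49.1%, 39.6 to 58.7), against 44.5% of all such peaks, and 50 of 122 in replicate 2 (41.0%, 32.2 to 50.3), against 43.6%. On the other autosomes the shares were 45.9% in replicate 1 and 48.8% in replicate 2. In peaks per Mb this was 13.8 in the middle, 5.01 in the left and 7.62 in the right part for replicate 1, and 12.4, 7.18 and 8.49 for replicate 2. Among numbers 1 to 100 the replicates parted, with 6 of 10 in the middle in replicate 1 and 4 of 14 in replicate 2, both with intervals wide enough to hold 30.6%. Of the series-level sites 12 of 27 lay in the middle (44.4%, 25.5 to 64.7), against 44% of all 141, with 6 in the left and 9 in the right part. On the other autosomes 40 of 74 series-level peaks were in the middle (54.1%, 42.1 to 65.7).

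**Figure D3:**
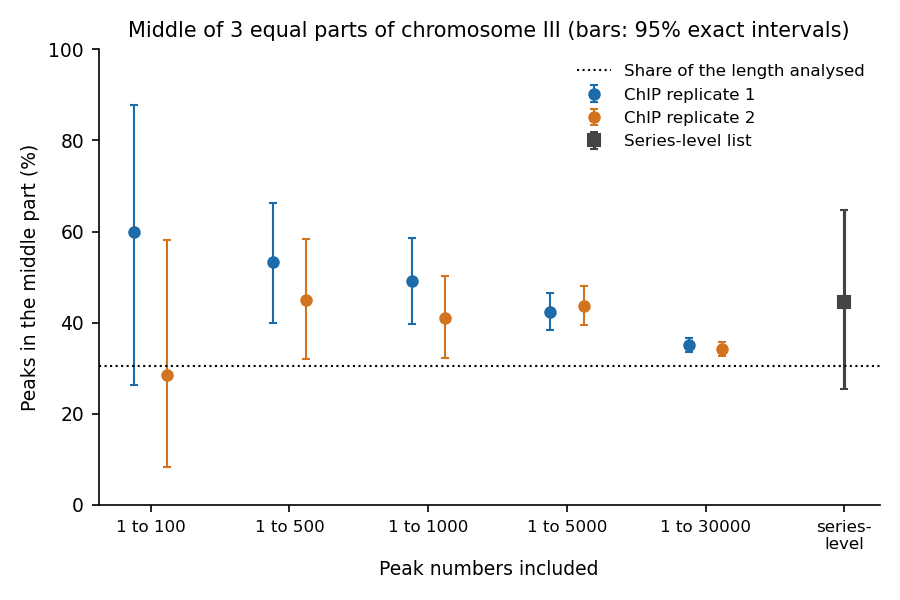
Share of the chromosome III peaks outside the Hox neighbourhood that lay in the middle part, by the peak numbers included, for ChIP replicate 1, ChIP replicate 2 and the series-level list. Bars are 95% exact intervals and the dotted line is the middle part's share of the length analysed, 30.6%. The shares for numbers 1 to 5000 are 42.3% and 43.7% in replicates 1 and 2, and those of the full lists 35.1% and 34.3%.

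In bins of 1 Mb, the replicate lists had a like profile along III. Over the 12 bins with their whole length analysed, replicate 1 had 195 to 329 peaks a bin (median 284) and replicate 2 had 208 to 317 (median 272.5). Bin counts had a Pearson correlation of 0.866 between the lists, a description over 12 neighbouring bins that share the genome sequence and the 2 libraries. The fullest bin of replicate 1 was 4000001 to 5000000, with 329 peaks, where replicate 2 had 316. The fullest of replicate 2 was 8000001 to 9000000, with 317 peaks, where replicate 1 had 323. The emptiest of replicate 1 was 12000001 to 13000000, with 195 peaks and 227 in replicate 2, and the emptiest of replicate 2 was 1000001 to 2000000, with 208 peaks and 225 in replicate 1.

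Series-level sites were spread unevenly over these bins. The bin 8000001 to 9000000, just right of the Hox neighbourhood, held 7 of the 27, or 6 separate places with the overlapping pair counted once. It also had the most members numbered 1 to 1000 in replicate 1 (21) and, jointly with the bin after it, in replicate 2 (17). Of the 103 bins of 1 Mb over all chromosomes, it was the only one with 7 series-level peaks. The right-end bin from 13000001, which is 0.781 Mb long, held 4 sites. No site lay in bins 1, 3, 8 and 13, of which bin 8 has only 0.45 Mb left after the neighbourhood is taken out. Over all chromosomes 66 of the 103 bins held a series-level peak, so empty bins were not particular to III. Among numbers 1 to 1000, bin 3 (2000001 to 3000000) had 1 peak in replicate 1 and 3 in replicate 2, the fewest of the full bins in each list. The widest gap between neighbouring sites, 1597 kb between centres, spans that bin and lies between the sites starting at 1859466 and 3456165.

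**Figure D4:**
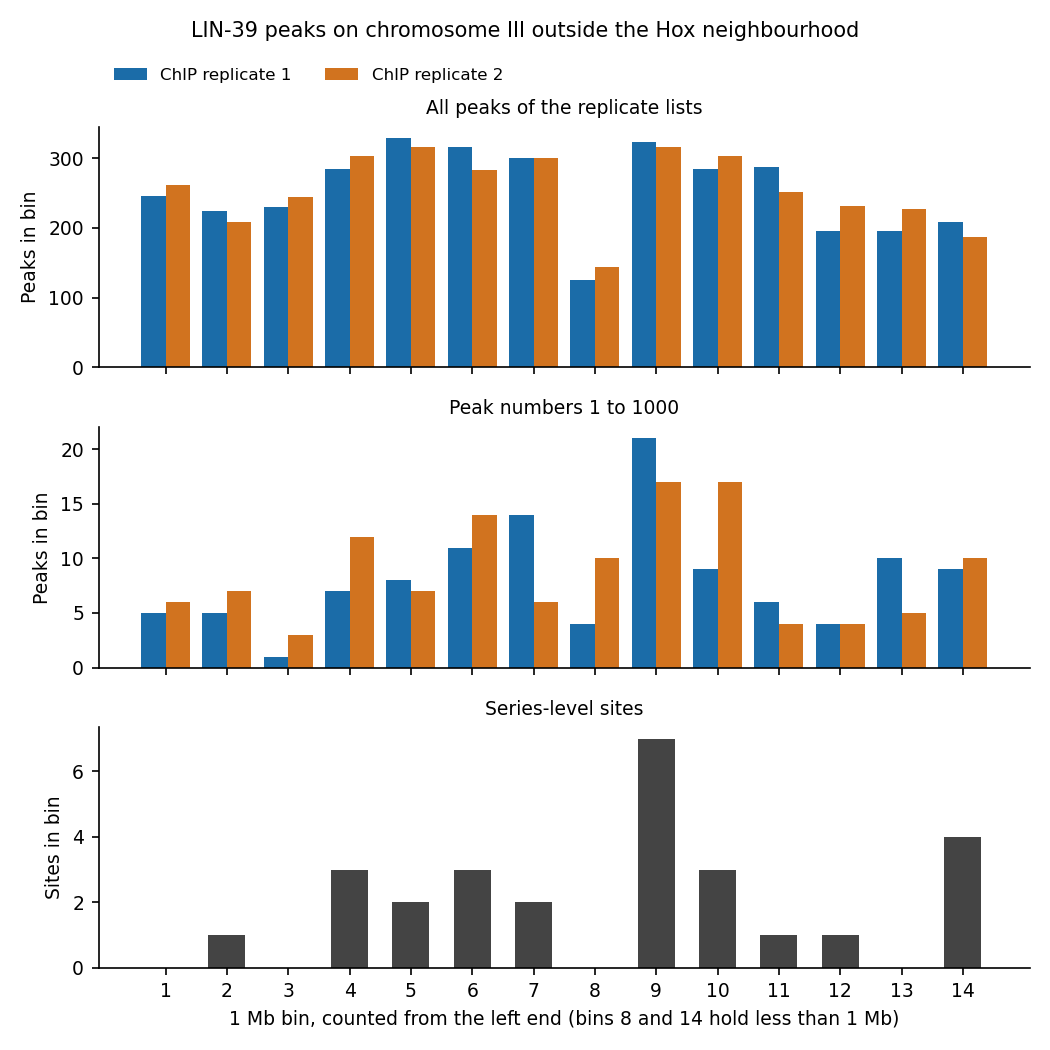
Peaks of the replicate lists (top), replicate peaks numbered 1 to 1000 (middle) and series-level sites (bottom) in 1 Mb bins along chromosome III, without the Hox neighbourhood. Bars are counts from 0, replicate 1 left of replicate 2. Bin 9 holds 7 series-level sites, and bin 8 is low in the top panel because 0.45 Mb of it was analysed.

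The overlap of the replicates asks how many of these peaks were found at the same place in both. Of the 3551 members in replicate 1, 1500 shared at least 1 bp with a replicate 2 peak (42.2%, 40.6 to 43.9), where 45.3% of that whole list did. Of the 3579 members in replicate 2, 1513 met one of replicate 1 (42.3%, 40.6 to 43.9), where 45.2% of all did. Peak density, on which accidental meetings depend, was lower on III as given above, and its part in these shares was not tested. By part, the overlap of replicate 1 peaks was 45.0% in the middle, 41.4% in the left and 40.1% in the right. That of replicate 2 peaks was 46.5%, 39.2% and 41.1%. The same shares by part were not taken for other chromosomes, so nothing particular to III can be read from them. Peak density was also highest in the middle part, and its bearing on these shares was not tested.

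The overlap fell down the lists. Among numbers 1 to 50 it was 7 of 7 members in replicate 1 and 6 of 7 in replicate 2, against 98% and 96% of all peaks with those numbers. Among numbers 501 to 1000 it was 55.6% in replicate 1 and 56.5% in replicate 2, against 59.2% and 57.5% in the rest of the series. Among numbers 20001 to 30000 it was 35.4% (32.7 to 38.2) and 34.5% (31.9 to 37.2), against 40.5% and 39.7% in the rest of the series. Both replicates' shares largely count the same meetings, from either side.

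**Figure D5:**
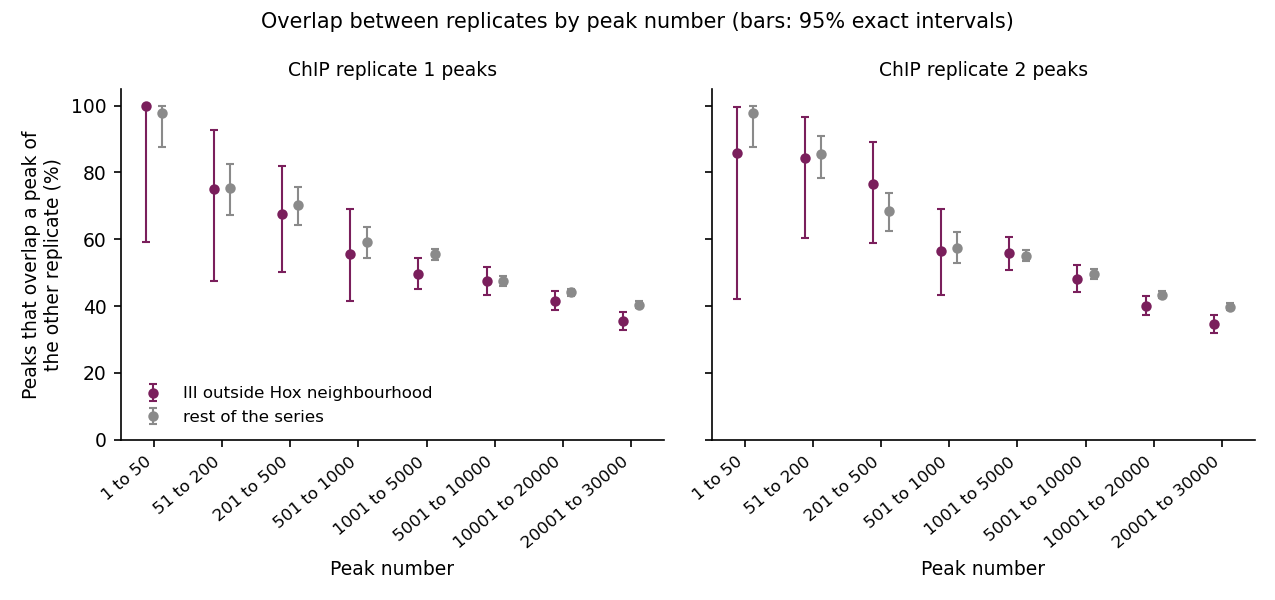
Share of peaks that overlapped a peak of the other replicate, by range of peak number, for chromosome III outside the Hox neighbourhood and for the rest of the series. Bars are 95% exact intervals, and the panels show replicate 1 and replicate 2 peaks. The shares on III fall to 35.4% and 34.5% in the last range, below the 40.5% and 39.7% of the rest.

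Near the top, a larger share of peaks on III met a partner that was itself near the top. Of the 114 replicate 1 members numbered 1 to 1000, 28 overlapped a replicate 2 peak numbered 1 to 1000 (24.6%, 17.0 to 33.5), where 14.5% of all such peaks did, and 13.2% (11.0 to 15.6) in the rest of the series. Of the 122 replicate 2 members, 27 did so (22.1%, 15.1 to 30.5), where 14% of all did, and 12.9% (10.7 to 15.3) in the rest. The 28 and the 27 are the same meetings counted from either side. The 28 replicate 1 peaks formed 26 separate stretches, with 9 peaks in the left, 10 in the middle and 9 in the right part. Of the 28, 21 overlapped a series-level site, where 75.9% of the 145 such peaks of the whole list did. The series-level list covers the same libraries, and the headers name a procedure that sets replicate ranks against each other. This count is therefore not independent of the share of series-level sites on III.

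The other 7, chosen for naming after their values were seen, were within numbers 1 to 1000 of both replicates and absent from the series-level list. In the left part, III 3953026 to 3953521 held place 806 of replicate 1 and place 60 of replicate 2, and 15.9 kb to its right III 3968970 to 3969465 held places 921 and 667. III 3784048 to 3784543 held place 676 of replicate 1 and place 650 of replicate 2. In the middle part, III 8788483 to 8788978 held place 195 of replicate 1 and place 400 of replicate 2. The remaining 3 fell in the bin 12000001 to 13000000, which holds no series-level site. III 12598413 to 12598908 held place 177 of replicate 1 and place 433 of replicate 2, III 12770544 to 12771039 held places 713 and 469, and III 12841337 to 12841832 held places 453 and 889.

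The 10 lowest-numbered members of each replicate included 4 without a series-level site. Over all members numbered 1 to 100, 9 of 10 in replicate 1 and 11 of 14 in replicate 2 overlapped a site, against 58% and 80% of all peaks with those numbers. In replicate 1 this was number 88, III 4953573 to 4954068, which met no replicate 2 peak at all. In replicate 2 these were number 42, III 12612427 to 12612916, with no replicate 1 peak and a score of 0.878, number 52, III 8795452 to 8795941, whose partner held place 19246 of replicate 1, and number 60, described above. In replicate 1 the last 6 of its 10, numbers 37, 44, 45, 53, 61 and 88, had scores of 0.465 and below, whereas all 10 of replicate 2 had 0.531 and above.

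At the borders of the excluded neighbourhood, most peaks on either side had high numbers. The last replicate 1 member left of it was number 13991 and the first peak inside number 27135, and on the right the first member was number 22256 and the last peak inside number 19135. In replicate 2 the members nearest the borders were numbers 23098 and 20177, and the peaks just inside numbers 1559 and 16871. The 1 series-level peak inside, III 7854382 to 7854885 (number 10), lies 95.4 kb within the right border. The neighbourhood itself had 265 replicate 1 and 276 replicate 2 peaks per Mb, close to the 268 and 270 outside it.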

How the data were processed

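ChIP-seq peak lists of 2 ChIP replicates and of the series as a whole were used, and the 2 input libraries entered no comparison. Peaks were called on WormBase WS220 with SPP followed by the irreproducible discovery rate (IDR) procedure, which sets replicate ranks against each other, per the file headers and source column. No aligner, version, setting or threshold is stated there. The deposited score is 1 value per peak; number and score are explained above. With n the peak number, n - 0.5 times 10 to the power of minus the score, less 0.5, came out whole within 0.001 for 99.5% of replicate 1 members, 99.8% of replicate 2 members and 100% of series-level members below the highest score. Peaks are 496 bp (replicate 1), 490 bp (replicate 2) and 504 bp (series-level) wide.

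Overlap meant at least 1 bp, and the number of a site in a replicate is the lowest among the peaks that overlap it. Chromosome length was the highest peak end in any list. Sites were named by rule: every series-level member, the 10 lowest numbers of each replicate, border peaks, and the fullest and emptiest bins; the 7 peaks near the top of both lists were chosen after their values were seen. Members and lists were chosen with earlier results of these data known. Overlap counting was tested on simulated data. Python 3.11.15, pandas 2.3.3, NumPy 2.4.6, SciPy 1.17.1 and matplotlib 3.10.9 were used.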

Additional observations from a re-analysis of the deposited data

How the results depend on the processing

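Of 34 alternatives to 8 results, 24 left a share within its 95% interval or a count within 1.5 times, and 10 moved it. The 3 alternatives on which replicate gave the lower number were chosen after seeing the data and gave 44.4% to 66.7% of sites for replicate 2, against 48.1%. The overlap of 42.2% became 20.4% with centres within 100 bp, 32.0% with 250 bp in common and 24.6% between the 1000 lowest numbers of each list, all stricter by construction. The middle part's 34.7% of the 2 replicate lists together became 44.9% for numbers 1 to 1000, 54.5% for the inner 2 of 4 equal parts, 31.9% with the excluded window widened by 250 kb on each side and 37.3% with it kept in; for series-level sites the inner 2 of 4 parts held 74.1%. These parts differ in length by construction, except for numbers 1 to 1000, where the cause was not tested. Of the 27 sites, 16 had a score above 0. The 20 sites near the top of both replicates became 8 when peaks were ranked by score, which rises again far down the replicate lists. Leaving out a replicate gave 23 to 24 such sites, 34.3% to 35.1% in the middle part and a share of III of 11.8% to 11.9%. The count of sites could not fall below 20 this way, because only 1 of the 2 conditions remains. No paired analysis was possible because ChIP and input share replicate numbers but only ChIP has peak lists here. Unknown depth limits every comparison of the replicates.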

Other observations

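Spacing within the replicate lists was a little wider on these stretches of III than elsewhere. Neighbouring peak centres lay a median of 2435 bp apart in replicate 1 and 2451 bp in replicate 2, against 2191 bp and 2160 bp in the rest of the series. Overlap with the next peak of the same list was seen for 13.6% of members in replicate 1 and 14.2% in replicate 2, against 15.4% and 14.8% in the rest. The widest gap without a peak centre was 37.0 kb in replicate 1 and 34.8 kb in replicate 2. The first lay near the left end of the chromosome and the second in its right part. In the rest the widest gaps were 222 kb and 220 kb, both on V, after peaks starting at 2342398 and 2345318. The rest holds many more peaks, so these maxima are not on equal terms.

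Order was weakly shared between the replicates here as elsewhere. Over the 1300 member peaks matched as nearest overlapping neighbours, peak numbers had a Spearman correlation of 0.108, against 0.107 over the 10384 matched peaks of the rest. With both numbers within 1 to 1000 it was 0.324 over 22 pairs on III and 0.525 over 87 pairs in the rest. These are descriptions over positions, many of which may have met by accident, and carry no test.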
